A study of Homo sapiens with 58 samples.

Results

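Early gained regulatory elements (REs) are stretches of chromatin that were more accessible after loss of the transcription factor SOX9 and were already higher 3 h after the degrader was added. They were chosen by their own accessibility in an ATAC-seq count table, and 853 of 151457 REs (0.563%) met the rule. CPM is an RE's count per 1000000 counts of its sample, and all log2 changes of single replicates below are differences of log2(CPM + 0.5). An RE was kept if its mean at 500 nM dTAGV-1 was at least 2 CPM, if its mean change from 0 to 500 nM over the 7 SOX9-tagged replicates at 48 h was at least 0.3, and if its change from vehicle to 3 h of 500 nM was at least 0.3 in both SOX9-tagged differentiations R4 and R5. The values of those contrasts selected the members, so they are given below as descriptions and carry no test. Accessibility in bulk ATAC-seq does not tell a larger share of cells with an open RE from more open chromatin in each cell.

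All cells were cranial neural crest cells (CNCCs) made from the established human embryonic stem cell line H9. In SOX9-tagged cells both copies of SOX9 carried FKBP12-F36V, mNeonGreen and V5 at the carboxy terminus, in clones S9CC13 and S9CC47, each a single edited clone. Wild-type (WT) cells had no tag, so that dTAGV-1, a molecule that brings FKBP12-F36V fusions to the ubiquitin ligase VHL, has no tagged SOX9 to act on in them. The dose series held 7 SOX9-tagged replicates (differentiations or clones) at each dose of 0, 0.5, 1.6, 5, 16 and 500 nM for 48 h, which left 100, 77.9, 51.7, 25.8, 8.14 and 0.95% of SOX9 according to the labels, and WT cells had 2 replicates (R8 and RSh) at 0 and at 500 nM. The 7 SOX9-tagged replicates came from 6 differentiations, with both clones in R6 (S9CC13_R6 and S9CC47_R6) and a single clone in each of the others. The time course held 2 differentiations (R4 and R5) of each genotype with vehicle for 24 h, with 500 nM for the last 3 h after 21 h of vehicle, or with 500 nM for 24 h.

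SOX9 is an HMG-box factor that opens and activates REs in neural crest and cartilage. Other factors that act at REs of CNCCs include TWIST1, a basic helix-loop-helix protein that binds E-boxes, homeodomain proteins such as MSX1, ALX4 and PRRX1, TFAP2 proteins, and AP-1, the dimer of FOS and JUN proteins that acts soon after a stimulus.

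Counts in the REs summed to 22.91 to 81.04 M (1000000 counts) per sample, and the median member held from 81 to 320 counts in single samples of the dose series. Among the defining markers, all 9 crest genes examined had a promoter RE, with means from 15.0 CPM (MSX1) to 84.9 CPM (SNAI2) at 0 nM. Promoter REs of markers of other cells lay from 1.24 to 20.3 CPM for stem cells (POU5F1 lowest, LIN28B highest), 2.49 to 11.5 CPM for neurons, 1.39 to 3.00 CPM for glia, 3.23 to 3.71 CPM for muscle, 19.1 and 23.8 CPM for melanocytes (PMEL and MITF) and 6.44 and 49.6 CPM for chondrocytes (ACAN and COL2A1). NANOG, TYR, DCT, MATN1 and MYF5 had no promoter RE in the table. The summed promoter accessibility of the crest markers was 382 CPM at 0 nM and 401 CPM at 500 nM, and 318 CPM with vehicle and 317 CPM at 3 h. From 0 to 500 nM the sum went from 56.1 to 41.4 CPM for chondrocyte markers, from 23.3 to 18.7 CPM for neuron markers and from 33.0 to 33.3 CPM for stem cell markers. From vehicle to 3 h it went from 20.2 to 17.9 CPM for neuron markers, from 40.4 to 43.8 CPM for chondrocyte markers and from 22.1 to 23.5 CPM for stem cell markers. Single genes carried some of these sums. From vehicle to 3 h NEUROG1 went from 12.1 to 8.33 CPM, while ELAVL4, STMN2 and POU4F1 rose. SNAI2 went from 60.9 to 49.6 CPM, while every other crest marker rose. From 0 to 500 nM COL2A1 went from 49.6 to 33.3 CPM, while ACAN rose from 6.44 to 8.13 CPM. The part of such cells in the members' change was not tested.

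Sequence of 7 members is shown because the results below turn on them. E1 and E6 had large changes between 0.5 and 16 nM, E7 had the largest 3 h change when the lower of its R4 and R5 values was ranked, E19 and E23 belong to the BMP and crest gene lists, and E24 and E32 lie on either side of SOX9. Each stretch is the central 201 bases of the RE on the plus strand of hg38, with E1 at chr20:34222320-34222520, E6 at chr2:42881215-42881415, E7 at chr2:8614615-8614815, E19 at chr2:147108490-147108690, E23 at chr4:4866248-4866448, E24 at chr17:72416481-72416681 and E32 at chr17:72027568-72027768. Capitals mark the E-box CATCTG (or CAGATG on the other strand), the homeodomain site TAATTA, the AP-1 site TGANTCA and the CArG box of serum response factor, and a stretch without capitals has none of them in its centre.
E1: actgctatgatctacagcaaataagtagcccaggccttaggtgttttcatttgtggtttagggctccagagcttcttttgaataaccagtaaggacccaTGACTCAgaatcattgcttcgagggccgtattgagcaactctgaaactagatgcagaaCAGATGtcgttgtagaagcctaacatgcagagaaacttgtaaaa
E6: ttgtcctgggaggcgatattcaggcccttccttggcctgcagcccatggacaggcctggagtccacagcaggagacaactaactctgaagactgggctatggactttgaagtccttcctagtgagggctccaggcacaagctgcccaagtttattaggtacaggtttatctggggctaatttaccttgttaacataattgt
E7: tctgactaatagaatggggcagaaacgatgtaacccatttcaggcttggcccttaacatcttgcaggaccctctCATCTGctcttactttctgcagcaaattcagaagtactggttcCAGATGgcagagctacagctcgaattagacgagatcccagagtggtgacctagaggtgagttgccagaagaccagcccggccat
E19: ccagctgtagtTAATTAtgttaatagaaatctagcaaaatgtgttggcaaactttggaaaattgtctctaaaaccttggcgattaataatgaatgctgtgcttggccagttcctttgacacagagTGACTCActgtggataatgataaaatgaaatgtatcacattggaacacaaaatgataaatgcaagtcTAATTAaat
E23: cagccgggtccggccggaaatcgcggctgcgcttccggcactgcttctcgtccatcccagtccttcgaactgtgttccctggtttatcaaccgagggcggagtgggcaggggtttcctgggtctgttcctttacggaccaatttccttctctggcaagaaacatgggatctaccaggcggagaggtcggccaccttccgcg
E24: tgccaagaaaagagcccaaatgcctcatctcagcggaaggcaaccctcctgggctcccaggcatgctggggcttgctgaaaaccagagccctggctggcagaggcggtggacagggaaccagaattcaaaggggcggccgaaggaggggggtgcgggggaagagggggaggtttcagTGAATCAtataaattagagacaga
E32: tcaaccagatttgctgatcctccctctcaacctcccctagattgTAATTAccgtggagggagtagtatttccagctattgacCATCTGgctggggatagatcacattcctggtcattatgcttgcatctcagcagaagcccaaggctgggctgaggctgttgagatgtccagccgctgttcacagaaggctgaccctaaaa
These stretches of E1, E19 and E24 held an AP-1 site, that of E1 beside an E-box and that of E19 beside homeodomain sites. The stretch of E7 held the E-box on each strand, that of E32 held an E-box and a homeodomain site, and those of E6 and E23 held none of the motifs. Outside these stretches the full REs held further matches, such as 1 homeodomain site in E6 and 2 E-boxes in E23.

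The rule left a small share of the gained REs. Of all REs, 84423 had a mean of at least 2 CPM at 500 nM, and 10493 of these were higher by at least 0.3 after 48 h. Of those gained REs, 2413 passed the 3 h threshold in R4, 2148 in R5 and 853 in both, and the other 9640 are called other gained REs. Members had a median level of 4.35 CPM at 500 nM, with quartiles of 2.81 and 7.63 CPM. Their median 48 h change was 0.48, from 0.30 to 1.53. Just inside the 3 h threshold lay E28 (chr18:12278666-12279540), at 0.34 in R4 and 0.30 in R5, and E29 (chr7:35280938-35281438), at 0.30 and 0.62. Just outside lay E30 (chr8:141920542-141921417), at 0.44 and 0.30, and E31 (chr15:73784249-73784749), at 0.30 and 0.31, with their lower values just under 0.3. The REs on either side of the threshold thus differed little.

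The dose series showed accessibility rising in steps as SOX9 fell. The median level of the members, averaged over 7 samples, was 2.75 ± 0.31 CPM (SD) without dTAGV-1, and with rising dose 2.94 ± 0.41 (0.5 nM), 3.10 ± 0.52 (1.6 nM), 3.49 ± 0.56 (5 nM), 4.10 ± 0.84 (16 nM) and 4.29 ± 0.63 CPM (500 nM). Neighbouring groups of this series overlapped. Within replicates the median change of the members against 0 nM was 0.07 ± 0.05 (SD, n = 7) for the 0.5 nM samples, 0.12 ± 0.08 for 1.6 nM and 0.27 ± 0.07 for 5 nM, and it reached 0.45 ± 0.13 for 16 nM and 0.51 ± 0.05 for 500 nM. On this scale 14% ± 11.2 (SD, n = 7) of the 500 nM change was present with 0.5 nM, 23.5% ± 14.6 with 1.6 nM, 52.7% ± 14.7 with 5 nM and 88.5% ± 21.2 with 16 nM. Other gained REs reached 44.1% ± 16 at 5 nM and 81.1% ± 25.0 at 16 nM. Within replicates the share of the members was the higher one in 7 of 7 at both doses, by 8.56 ± 3.99 percentage points (SD, n = 7) at 5 nM and 7.38 ± 5.21 at 16 nM. The rule used the 0 and 500 nM samples, so these shares are a description.

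**Figure D1:**
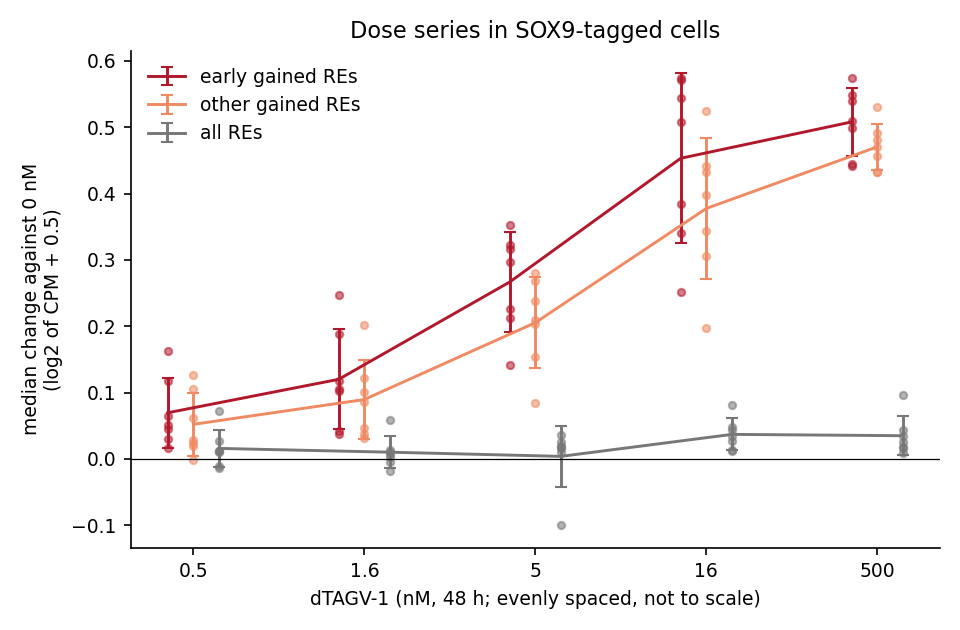
Median log2 change against 0 nM at each dTAGV-1 concentration for 48 h, with 1 point for each of the 7 SOX9-tagged replicates and lines through the means with SD. Early gained REs reached 0.27 ± 0.07 at 5 nM and 0.45 ± 0.13 at 16 nM, other gained REs lay lower with overlapping points, and the median over all REs stayed near 0.

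The samples at 0.5, 1.6, 5 and 16 nM played no part in the choice of members, and the comparisons of 16, 5 and 1.6 nM with 0.5 nM ask whether the members follow the SOX9 level in samples the rule did not use. They come from the same differentiations as those the rule used. From 0.5 to 16 nM, where SOX9 falls from 77.9 to 8.14%, 522 of the 853 members (61.2%) rose with an edgeR adjusted p-value under 0.05, against 5.45% of all REs called higher in that comparison. None fell, and 845 members had an estimate above 0. By mean change within replicates 99.1% of members, 99.0% of other gained REs and 58.8% of all REs lay above 0. The median change within replicates was 0.38 ± 0.12 (SD, n = 7), from 0.23 in S9CC13_R14 to 0.53 in S9CC47_R8, and 0.02 ± 0.03 over all REs. Of the other gained REs 48.1% rose in the same comparison. Without the differentiation batch in the fit 66 members rose.

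From 0.5 to 5 nM, where SOX9 falls to 25.8%, 98 members (11.5%) rose and none fell, against 0.509% of all REs and 5.64% of the other gained REs called higher. The median change within replicates was 0.20 ± 0.06 (SD, n = 7), with the lowest value, 0.09, in S9CC47_R6. The count was the least steady of the series, since with the paired replicate as block 292 members rose, and leaving out single replicates gave 40 (without S9CC47_R8), 51 (without S9CC13_R14 or S9CC47_R5), 55 (without S9CC13_R13), 56 (without S9CC13_R10), 192 (without S9CC13_R6) and 386 (without S9CC47_R6). In S9CC47_R6 the median over all REs was -0.13 in this comparison, against -0.01 to 0.04 in the other replicates. R6 was the only differentiation with both clones in the dose series. Leaving out S9CC13_R6 or S9CC47_R6 therefore also makes the differentiation batch the same as the paired replicate block. The part of this library and of this pairing in the count was not tested.

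From 0.5 to 1.6 nM, where SOX9 falls to 51.7%, 0 members passed the threshold by edgeR, as did 0% of all REs. At an unadjusted p under 0.05 there were 44 members higher and 2 lower, next to 5492 of all 151457 REs in either direction. DESeq2 called 0 members, and with the replicate block 3 rose. The median change was 0.05 ± 0.05 (SD, n = 7). The estimates had a median standard error of 0.12, so changes of this size in single members were not detectable.

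The change was then followed in time. With 500 nM the median change of the members in SOX9-tagged cells was 0.45 in R4 and 0.41 in R5 at 3 h, and 0.68 and 0.43 at 24 h. Over all REs the same medians were 0.07 and 0.05 at 3 h, and 0.07 and 0.01 at 24 h. The change was larger in SOX9-tagged than in WT cells at 3 h in both differentiations for 753 members (88.3%), where the rule used the SOX9-tagged values. Between 3 h and 24 h the change grew in both differentiations for 342 members (40.1%) and shrank in both for 122 (14.3%). For these counts and the 753 members the share over all REs was not computed, so they describe the members alone. At 24 h 573 members (67.2%) were still higher than vehicle by at least 0.3 in both differentiations, and 0 were lower by that much, against 6.77% and 10.1% of all REs and 29.7% of other gained REs higher. The 3 h values selected the members and the vehicle samples are shared, so no test is given.

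WT cells show what the same treatment did where SOX9 had no tag. At 3 h the median change of the members was -0.01 in R4 and 0.13 in R5, next to -0.005 and 0.09 over all REs. At 24 h it was 0.05 and 0.02 (0.03 and 0.02 over all REs), and at 48 h -0.04 in R8 and -0.04 in RSh (0.01 and -0.02 over all REs). At 3 h 19 members (2.23%) were higher by at least 0.3 in both WT differentiations, against 1.55% of all REs, and 4 were lower by as much (0.469%, against 0.26%). At 24 h 15 members were higher in this way (1.76%, against 1.49% of all REs) and 4 lower (0.469%, against 0.514%). At 48 h 5 were higher (0.586%, against 0.654%) and 11 lower (1.29%, against 0.631%). The same share of the other gained REs at 3 h was 1.01%.

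**Figure D2:**
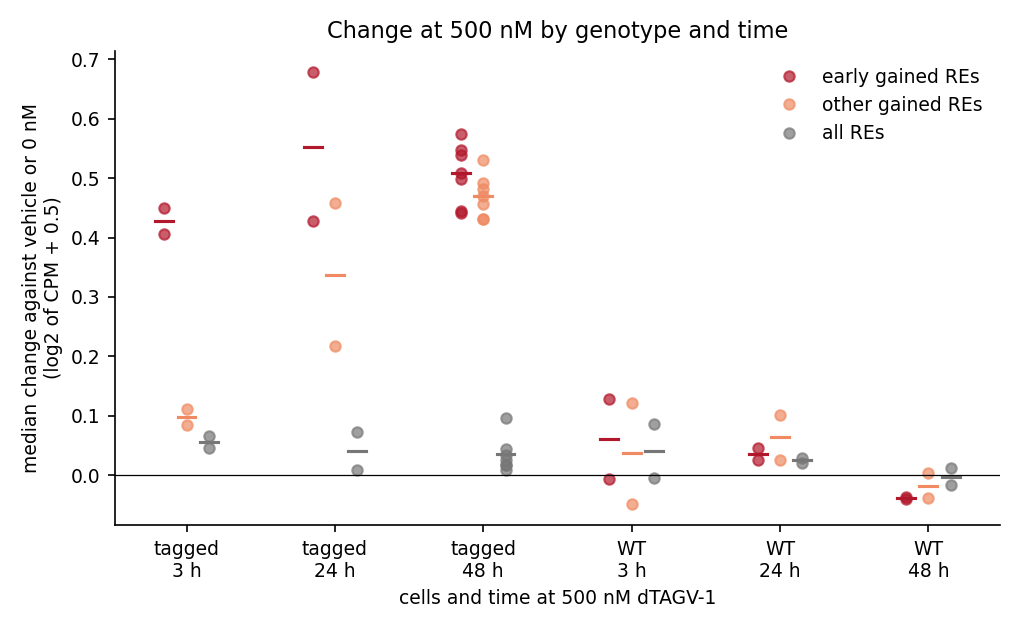
Median log2 change at 500 nM dTAGV-1 against vehicle (3 h and 24 h) or 0 nM (48 h) in SOX9-tagged and WT cells, with 1 point per replicate and a bar at the mean. Early gained REs had medians from 0.41 to 0.68 in SOX9-tagged cells, where the 3 h and 48 h values selected them, and from -0.04 to 0.13 in WT cells.

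The edgeR tests in WT cells called few members. At 3 h 0 members passed the threshold in either direction (0% of all REs), with 34 higher and 6 lower at an unadjusted p under 0.05 and 0 by DESeq2. At 24 h 0 passed (0% of all REs), with 14 higher and 12 lower at an unadjusted p under 0.05 and 0 by DESeq2. At 48 h 1 member was called higher (0.158% of all REs were) and 7 lower (0.821%, against 0.145% of all REs), with 23 higher and 82 lower at an unadjusted p under 0.05. Of all 151457 REs, 3656 were under this unadjusted p at 3 h, 4642 at 24 h and 12537 at 48 h, in either direction. The 1 called higher, named after its values were seen, lies in an intron nearest the start of HS6ST3, a heparan sulfate sulfotransferase gene (chr13:96119852-96120352), with mean levels of 1.5 CPM at 0 nM and 2.70 CPM at 500 nM, changes of 0.94 in R8 and 0.24 in RSh, and an edgeR estimate of 0.78 ± 0.18 (SE, adjusted p = 0.01). All 8 calls were lost with DESeq2, without the replicate block, in the fit pooled with SOX9-tagged samples, and without R8 or RSh. The median standard error of the members was 0.19 at 3 h and 24 h and 0.15 at 48 h. In counts simulated for the 48 h comparison, 6 of 100 planted log2 changes of 0.5 and 59 of 100 of 1.0 were called. The small number of calls therefore does not show that single members were unchanged in WT cells.

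A further comparison set SOX9-tagged against WT cells, both after 24 h of 500 nM, groups that the rule did not use. The fit held all samples of the time course, however. The SOX9-tagged vehicle and 3 h samples that the rule used thus enter its spread and batch terms, and its p-values are not fully independent of the rule. Here 497 members (58.3%) were higher in SOX9-tagged cells by edgeR, against 4.41% of all REs, and 0 were lower. The median difference was 0.62 in R4 and 0.66 in R5, next to 0.07 and 0.05 over all REs, and 31.2% of the other gained REs were called. Without the differentiation in the fit 29 members were called. This contrast holds the genotype and the clones as well as the loss of SOX9. With vehicle, in samples the rule used, the members' median difference between the genotypes was 0.002 in R4 and 0.25 in R5. Of the 853 members, 390 were called both here and at 16 against 0.5 nM, and 224 in neither.

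The 6 members with the largest dose response lay between genes, except for E1. E1 (chr20:34222170-34222670) lies in an intron of ASIP, which encodes the agouti signalling protein, an antagonist of melanocortin receptors. Its level at 0.5 nM ran from 0.238 to 1.04 CPM with a median of 0.547 CPM, and at 16 nM from 0.704 to 2.10 CPM with a median of 1.39 CPM. The groups overlapped, but every replicate was higher at 16 nM, and the edgeR log2 estimate was 1.32 ± 0.19 (SE, adjusted p = 6.1e-05). These levels rest on 11 to 43 counts per sample at 0.5 nM.

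E6 (chr2:42881065-42881565) lies between genes, 88.5 kb from the start of HAAO, an enzyme gene of the kynurenine pathway. It ran from 4.99 to 14.7 CPM with a median of 9.88 CPM at 0.5 nM, and from 10.4 to 32.6 CPM with a median of 22.8 CPM at 16 nM. The highest samples at 0.5 nM overlapped the lowest at 16 nM, and within replicates it was higher in 7 of 7. The edgeR estimate was 1.14 ± 0.08 (SE, adjusted p = 1.8e-08), and it also rose from 0.5 to 5 nM, by 0.64 ± 0.09 (adjusted p = 0.00037). In the time course its level went from 9.43 to 15.1 to 28.8 CPM in R4 (vehicle, 3 h, 24 h) and from 5.21 to 9.10 to 10.3 CPM in R5. In WT cells the same samples gave 8.01, 8.57 and 8.40 CPM in R4, and 3.47, 4.04 and 3.48 CPM in R5. The WT levels hardly moved within a differentiation, while R8 and RSh differed much from each other, at 6.21 and 22.6 CPM without dTAGV-1.

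E4 (chr16:55249878-55250378) lies 73.8 kb from IRX6, an Iroquois homeobox gene, and was among the 6 largest both at 16 nM and at 3 h. It ran from 0.433 to 4.78 CPM (median 1.89 CPM) at 0.5 nM and from 1.86 to 9.99 CPM (median 4.97 CPM) at 16 nM, and edgeR put the rise at 1.20 ± 0.19 (SE, adjusted p = 0.00014). At 3 h it rose from 1.98 to 4.25 CPM in R4 and from 1.42 to 2.95 CPM in R5, the values that chose it. WT cells held 1.32 CPM with vehicle and 1.24 CPM at 3 h in R4, and 0.535 and 0.579 CPM in R5. After 24 h of 500 nM SOX9-tagged cells had 7.02 and 2.63 CPM against 1.57 and 0.369 CPM in WT cells, a difference of 2.25 ± 0.28 (SE, edgeR adjusted p = 5.3e-06).

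The other 3 of these members lay 75.1 to 329 kb from the nearest coding start. E2 (chr10:61587011-61587790, nearest CABCOCO1) rose by 1.31 ± 0.11, E3 (chr9:120083175-120083675, nearest CDK5RAP2, a centrosome protein gene) by 1.28 ± 0.13, and E5 (chr17:14547538-14548038, nearest HS3ST3B1, a heparan sulfate sulfotransferase gene) by 1.15 ± 0.12 (SE, edgeR adjusted p from 1.9e-07 to 2.6e-06). Each was higher in 7 of 7 replicates. Replicates differed widely in level, as E2 shows with 0.433 to 6.63 CPM at 0.5 nM and 1.36 to 16 CPM at 16 nM.

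**Figure D3:**
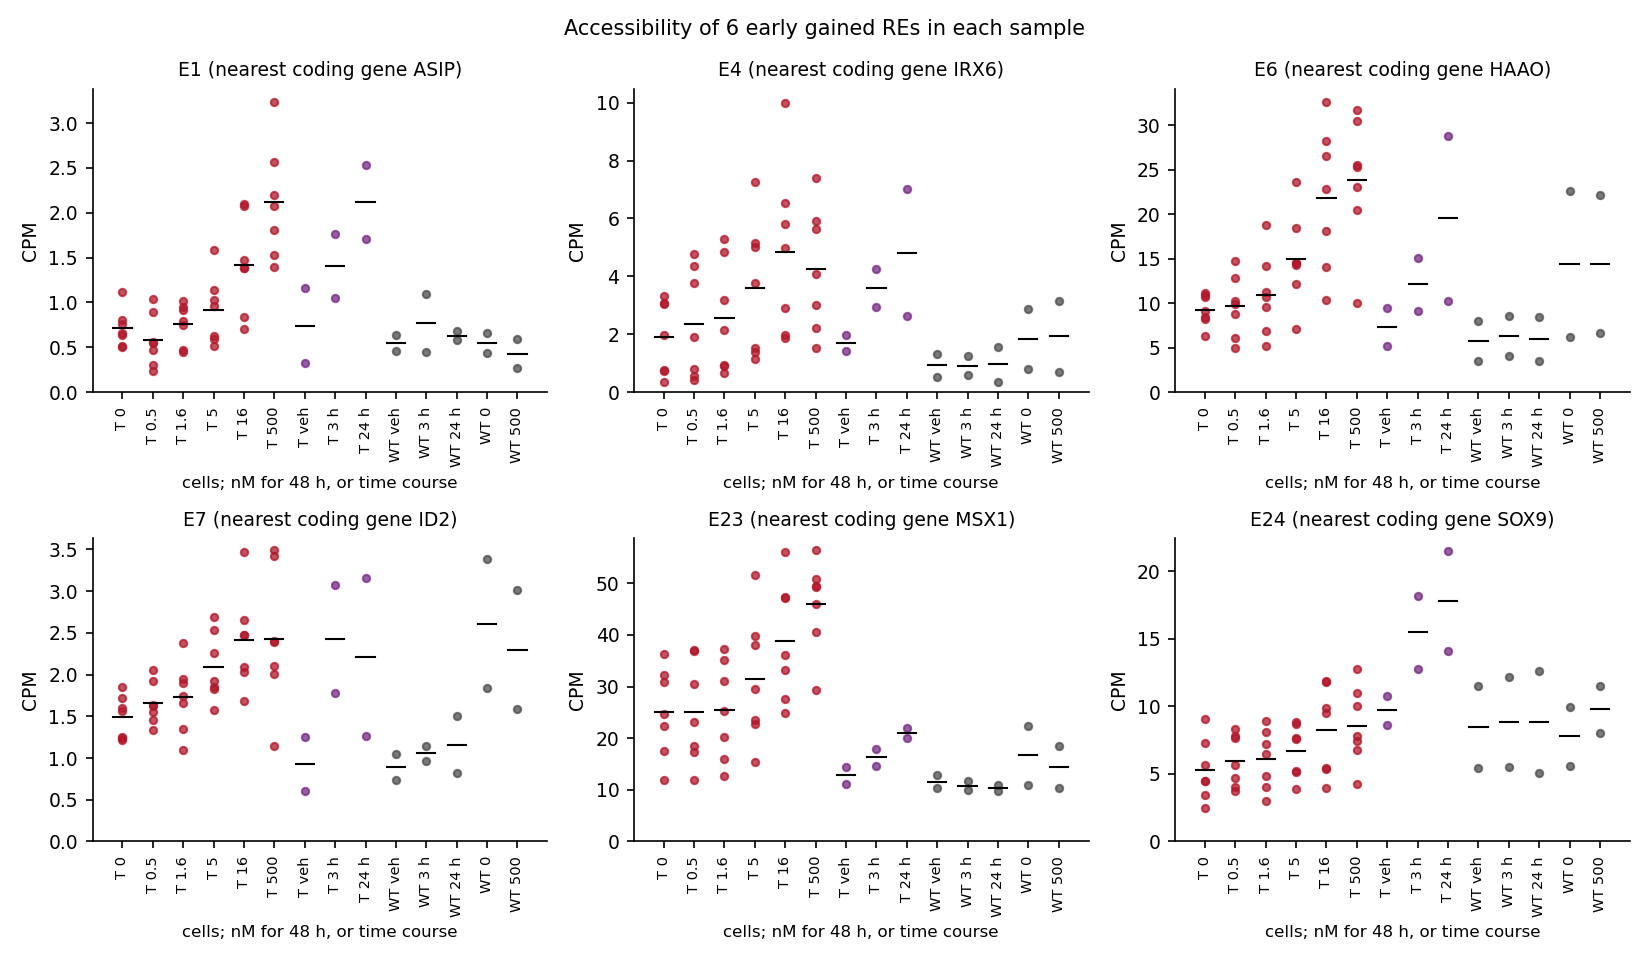
CPM of 6 early gained REs in each of the 58 samples, with a bar at the group mean (T, SOX9-tagged cells; numbers, nM of dTAGV-1 for 48 h; veh, vehicle for 24 h; 3 h and 24 h at 500 nM). The dose groups overlap in level because replicates differ, and E6 at 16 nM lies between 10.4 and 32.6 CPM against 4.99 to 14.7 CPM at 0.5 nM.

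The members with the largest 3 h change were mixed in WT cells. E7 (chr2:8614465-8614965) lies in a non-coding gene 63.9 kb from ID2, which encodes an inhibitor of basic helix-loop-helix factors. With vehicle, 3 h and 24 h its level was 1.25, 3.07 and 3.16 CPM in R4 and 0.600, 1.78 and 1.27 CPM in R5. In WT cells it was 1.05, 0.969 and 1.5 CPM in R4 and 0.733, 1.14 and 0.816 CPM in R5. It was thus close to its 24 h level by 3 h in SOX9-tagged R4, and WT R5 also held more at 3 h than with vehicle. From 0.5 to 16 nM it rose by 0.52 ± 0.13 (SE, edgeR adjusted p = 0.0096).

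E8, E10 and E11 also had higher WT values at 3 h. E8 (chr8:141351718-141352655), 14.6 kb from GPR20, an orphan receptor gene, went from 7.73 to 22.6 CPM in SOX9-tagged R4 and from 5.50 to 10.3 CPM in R5, and in WT cells from 6.60 to 13 CPM in R4 and from 5.15 to 4.93 CPM in R5. E10 (chr5:31819974-31820474), in an intron of PDZD2, went from 7.65 to 13.5 CPM and from 4.8 to 8.66 CPM in SOX9-tagged cells, and from 6.76 to 12.1 CPM and from 3.53 to 4.96 CPM in WT cells. E11 (chr12:50933627-50934127), 8.61 kb from METTL7A, changed by 1.00 and 0.77 in SOX9-tagged cells and by 0.48 and 0.50 in WT cells. E10 and E11 are among the 19 members higher by 0.3 or more in both WT differentiations, so they were also higher in cells without the tag. E9 (chr5:139764313-139764813), 31.0 kb from PSD2, changed by 0.95 and 0.82 in SOX9-tagged cells and by -0.20 and -0.32 in WT cells. Between 0.5 and 16 nM E10 and E11 both rose by 0.38 ± 0.11 (SE, edgeR adjusted p = 0.035 and 0.022), while E8 had 0.25 ± 0.09 (adjusted p = 0.092) and E9 0.52 ± 0.28 (adjusted p = 0.27). The call of E10 was lost without S9CC13_R13, S9CC13_R14, S9CC47_R5 or S9CC47_R8, and that of E11 without S9CC13_R10, S9CC13_R13, S9CC13_R14 or S9CC47_R8. With the paired replicate block E8 and E9 passed as well (edgeR adjusted p = 0.018 and 0.00028), as they did without S9CC13_R6 or S9CC47_R6.

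Few members were promoters. An RE within 1000 bp of a protein-coding start site made up 5.16% of members (44 of 853), 5.73% of other gained REs and 16.6% of all REs. A further 37.2% lay in introns and 36.1% between genes, and 29.2% lay over 100 kb from any coding start. Of the 44 promoter members 16 (36.4%) rose from 0.5 to 16 nM, and of the other 809 members 506 (62.5%). In the replicates the median change was 0.30 ± 0.10 (SD, n = 7) for promoter members and 0.39 ± 0.12 for the rest.

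The promoter members with the most signal at 500 nM included those of TK2, LRRN4 and TAGLN. E12 (chr16:66511465-66512405), at TK2, the mitochondrial thymidine kinase gene, ran from 14 to 29.3 CPM at 0.5 nM and from 21 to 34.4 CPM at 16 nM, and rose by 0.32 ± 0.07 (SE, edgeR adjusted p = 0.0062). E15 (chr11:117198918-117199418), at TAGLN, which encodes the actin-binding smooth muscle protein transgelin, ran from 7.99 to 16.3 CPM and from 10.1 to 17.4 CPM, and rose by 0.39 ± 0.11 (edgeR adjusted p = 0.024). It held CArG box matches. E14 (chr20:6053973-6054473), at LRRN4, had 0.18 ± 0.07 (adjusted p = 0.12). The groups of these members overlapped in level, and E12 and E15 were higher in 7 of 7 replicates, with E14 higher in 6. The call of E15 was lost without S9CC13_R13 or S9CC47_R5, and E14 passed with the replicate block (edgeR adjusted p = 0.028).

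The members were spread over 749 nearest coding genes, of which 663 held a single member. The nearest gene is an address and not a target. SOX9 itself was nearest to 6 members of 71 REs and MSX1 to 5 of 36, and 11 genes held 3 each (among them C5orf15, CMIP, GRK5, HLF, KAZN, PTPRU, RNF144A, ROBO1, SDK1 and TMEM63B). Within 50 kb of another member lay 92 members (10.8%), and within 50 kb of a member lay 6.66% of other gained REs and 4.43% of all REs. Within 50 kb of an early lost RE, which fell by at least 0.3 at 3 h in both differentiations and at 48 h, lay 19.3% of members, 20.2% of other gained REs and 24.7% of all REs.

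Around SOX9, 6 of 71 REs were members and 19 were other gained REs, and none was an early lost RE. E24 (chr17:72416331-72416831), E35 (chr17:72412567-72413067), E36 (chr17:72422449-72422949) and E34 (chr17:72381982-72382482) lie in the long non-coding gene LINC00511, 261 to 301 kb from the SOX9 start. E32 (chr17:72027418-72027918) lies in the non-coding gene ROCR, 93.1 kb from SOX9 on the other side, and E33 (chr17:72166006-72166506) in SOX9-AS1. E24 ran from 3.73 to 8.36 CPM with a median of 5.66 CPM at 0.5 nM and from 3.95 to 11.9 CPM with a median of 9.50 CPM at 16 nM, and was higher in 7 of 7 replicates. Between 0.5 and 16 nM 5 of the 6 rose, with log2 fold changes of 0.41 ± 0.10 for E24, 0.45 ± 0.12 for E32, 0.42 ± 0.11 for E33, 0.57 ± 0.15 for E35 and 0.42 ± 0.13 for E36 (SE, edgeR adjusted p from 0.0073 to 0.042). E34 had 0.16 ± 0.10 (adjusted p = 0.40). Among all members 61.2% rose in this comparison, and among all REs 5.45%. Calls were lost for E32 without S9CC13_R10 or S9CC47_R5, for E33 without S9CC47_R5 or S9CC47_R8, for E35 without S9CC13_R14, and for E36 without S9CC13_R10, S9CC47_R5 or S9CC47_R8 and with the concentration labels of S9CC13_R14. At 3 h E32 had changes of 0.72 and 0.47 in SOX9-tagged cells and of 0.17 and 0.78 in WT cells, so the genotypes overlapped.

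MSX1 encodes a homeodomain repressor of craniofacial mesenchyme. Of 36 REs nearest it 5 were members, 11 were other gained REs and 1 was an early lost RE. E23 (chr4:4865665-4867031) and E40 (chr4:4864783-4865283) are neighbours 6.00 and 5.12 kb from its start, and E37, E38 and E39 lie 155, 99.3 and 82.4 kb away in the non-coding gene STX18-AS1. E23 ran from 12 to 37.1 CPM with a median of 23.2 CPM at 0.5 nM and from 24.9 to 56.0 CPM with a median of 36.1 CPM at 16 nM. Its replicates overlapped, 7 of 7 rose, and the estimate was 0.64 ± 0.13 (SE, edgeR adjusted p = 0.0016). E37 (chr4:4704103-4704603) rose by 0.71 ± 0.09 (adjusted p = 1.3e-05) and E40 by 0.65 ± 0.16 (adjusted p = 0.0093). E38 (chr4:4759843-4760343) had 0.22 ± 0.11 (adjusted p = 0.25) and E39 (chr4:4776792-4777292) 0.30 ± 0.10 (adjusted p = 0.068), and both passed with the replicate block (edgeR adjusted p = 0.012 and 0.013), as did both without S9CC47_R6 and E39 without S9CC13_R6. The call of E40 was lost without S9CC47_R5.

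The members were also counted by pathway, with the REs nearest to the genes of 16 lists. Over all REs 0.563% were members. The share was 2.15% for TGF-beta pathway genes (10 of 465 REs), 1.95% for smooth muscle and contractile genes (4 of 205), 1.5% for neural crest transcription factors (16 of 1066) and 1.45% for the SOX family (7 of 482). It was 0.959% for AP-1 and immediate early genes (4 of 417), 0.781% for axon guidance and migration cues (10 of 1280), 0.687% for the BMP pathway (4 of 582) and 0.576% for the Hedgehog and Notch pathways (3 of 521). It lay at 0.625% for melanocyte and glial genes (1 of 160), 0.662% for heat shock and stress genes (1 of 151), 0.391% for YAP and TEAD targets (1 of 256), 0.345% for the FGF pathway (2 of 580) and 0.239% for the WNT pathway (2 of 837). Counts are small, neighbouring REs of a gene are not independent, and no list is called particular to the members. The counts of members that rose from 0.5 to 16 nM, given below by list, stand beside 61.2% of all members and 5.45% of all REs. No list is read as rising more or less often than the members as a whole. Osteoblast genes (272 REs), cartilage genes (131 REs) and neuron genes (170 REs) had 0 members.

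**Figure D4:**
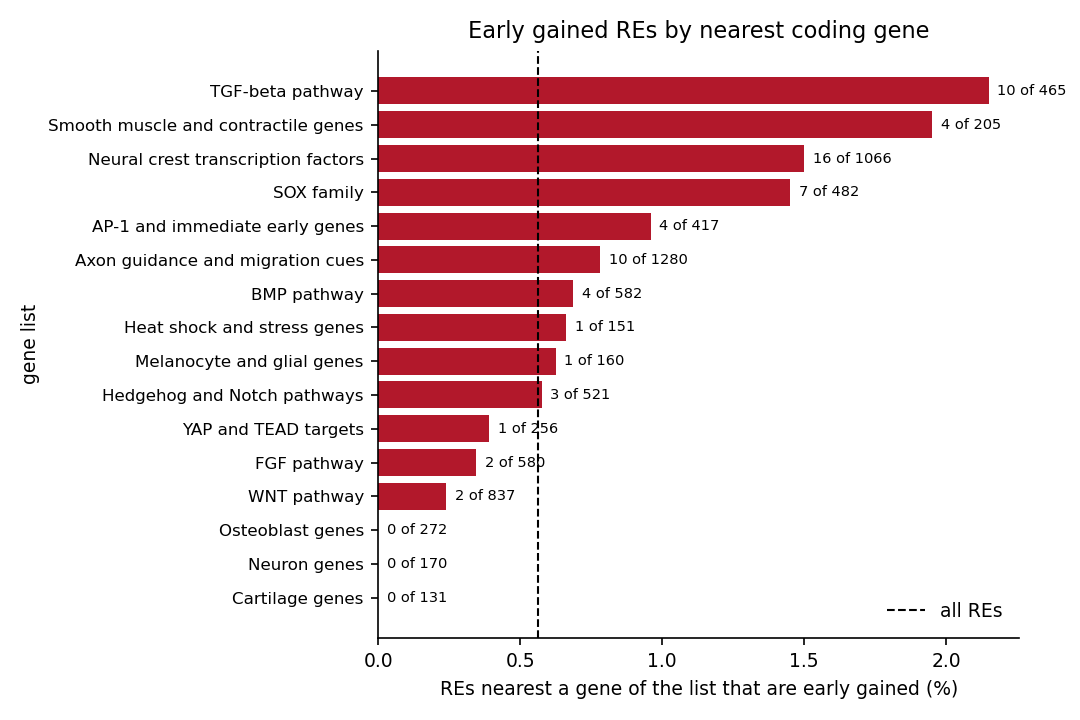
Share of the REs nearest to genes of each list that are early gained, with the counts beside the bars and a dashed line at the share over all REs, 0.563%. The TGF-beta pathway has the highest share with 10 of 465 REs, and 3 lists have none.

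In the TGF-beta list the members lay nearest the ligand genes TGFB2 and INHBA, the receptor gene TGFBR2, the signal transducer SMAD2, the inhibitors SMAD7 and PMEPA1, and TGFBI, which encodes a secreted matrix protein. From 0.5 to 16 nM 5 of the 10 rose, near INHBA, PMEPA1, SMAD2 and TGFBI, with a range of log2 fold changes over the 10 from 0.05 to 0.72 and a median of 0.40. The one with the most signal was E18 (chr5:136058203-136058703), the TGFBI promoter, at 7.28 to 12.6 CPM (median 10.9 CPM) at 0.5 nM and 9.10 to 18.5 CPM (median 14.5 CPM) at 16 nM. It was higher at 16 nM in 7 of 7 replicates, by 0.43 ± 0.08 (SE, edgeR adjusted p = 0.00083). In the time course SOX9-tagged cells went from 8.76 to 13.6 to 15.5 CPM in R4 and from 14.1 to 18.2 to 21.5 CPM in R5, and WT cells from 9.83 to 10.7 to 9.48 CPM and from 10.9 to 13.7 to 12.4 CPM. The WT R5 sample at 3 h was also above its vehicle, by 0.31 on the log2 scale.

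In the neural crest list the 16 members included REs nearest ALX4, BARX1, MSX1, NR2F2, PRRX1, PRRX2, TFAP2A, TFAP2C, TWIST2 and ZEB1. Of the 16 members 10 rose from 0.5 to 16 nM, where 61.2% of all members and 5.45% of all REs rose. The median log2 fold change over the 16 was 0.51, from 0.22 to 0.73. All 4 members of the AP-1 and immediate early list rose, near BHLHE40, FOSL2, KLF6 and KLF10, with a median of 0.52. The one with the most signal, E16 (chr8:102657293-102657793), lies 1.57 kb from KLF10, a TGF-beta-inducible zinc finger gene, and went from a median of 10.3 CPM at 0.5 nM to 13.3 CPM at 16 nM (0.35 ± 0.11, SE, edgeR adjusted p = 0.036). This call was lost when S9CC13_R10, S9CC13_R13, S9CC13_R14, S9CC47_R5 or S9CC47_R8 was left out, and that of E26 below without S9CC47_R5 or S9CC47_R8. Of the 10 members near guidance genes 8 rose, among them E26 (chr10:44260710-44261674), 123 kb from the chemokine gene CXCL12 (0.31 ± 0.08, adjusted p = 0.011).

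Of the 4 BMP members 3 rose, near ACVR2A, a type II receptor of activins and BMPs, and near ID2. E19 (chr2:147108099-147109081), 735 kb from ACVR2A, went from 2.38 to 8.29 CPM (median 6.75 CPM) at 0.5 nM to 5.22 to 13.8 CPM (median 10.9 CPM) at 16 nM, with 0.71 ± 0.10 (SE, edgeR adjusted p = 3.7e-05), and was higher in 7 of 7 replicates. E22 (chr8:79869358-79869858), 102 kb from HEY1, a Notch target, rose by 0.86 ± 0.15 (adjusted p = 0.00065), E21 (chr3:55570282-55570782), 80.3 kb from the ligand gene WNT5A, by 0.61 ± 0.13 (adjusted p = 0.0032), and E25 (chr4:54541354-54541854), 115 kb from the receptor gene KIT, by 0.66 ± 0.12 (adjusted p = 0.00098). E20 (chr5:177098231-177099218), 5.06 kb from the receptor gene FGFR4, rose by 0.35 ± 0.11 (adjusted p = 0.032), a call lost without S9CC13_R10, S9CC13_R14, S9CC47_R5 or S9CC47_R8.

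Of the 4 near smooth muscle genes only that of TAGLN passed the threshold, and those near CNN1, TPM1 and TPM2, which encode calponin and tropomyosins, did not. The single members near CRIM1 (E17, chr2:35803165-35803665, 0.45 ± 0.15, adjusted p = 0.052) and GADD45B (E27, chr19:2474529-2475029, 0.08 ± 0.17, adjusted p = 0.87) did not pass the edgeR threshold either, and E17 passed with the replicate block (adjusted p = 0.0095), with DESeq2, with total counts, with the concentration labels of S9CC13_R14 and without S9CC13_R10, S9CC13_R14 or S9CC13_R6.

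The sequences of the members were scanned for short motifs on both strands, in the 657 members and 123778 REs of exactly 501 bp. The scan held 23 short motifs, a CArG box and a facing pair of SOX cores, and only some are given. None of the short strings below contains another, but a CArG box or a facing pair of SOX cores can contain one of them. A match is a description and not a site. The E-box CATCTG, a form bound by TWIST1, was present in 53.3% of members, 44.3% of other gained REs and 42.1% of all REs. Another E-box, CAGGTG of the ZEB and SNAI type, was rarer in members than in all REs, at 29.4%, 22.1% and 33.6%. The AP-1 site TGANTCA was present in 23.4%, 28.8% and 15.5%, the homeodomain site TAATTA in 19.8%, 21% and 13.6%, and the CArG box in 7.91%, 5.89% and 3.33%. The SOX site ACAATG was present in 12.5% of members, 20.5% of other gained REs, 39.7% of early lost REs and 21.2% of all REs. The second SOX form ACAAAG was present in 22.1%, 32.7%, 54.5% and 33.3% of the same sets. A facing pair of SOX cores was present in 0 of the 657 members, 0.561% of early lost REs and 0.178% of all REs. The TFAP2 site GCCNNNGGC (23.1% of members and 23.1% of all REs) and the TEAD site GGAATG (31.1% and 30.9%) had like shares. The CTCF core AGNNGGCAG (16.4% and 20.0%) and the SP and KLF site GGGCGGG (8.83% and 11.8%) had lower shares in members.

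**Figure D5:**
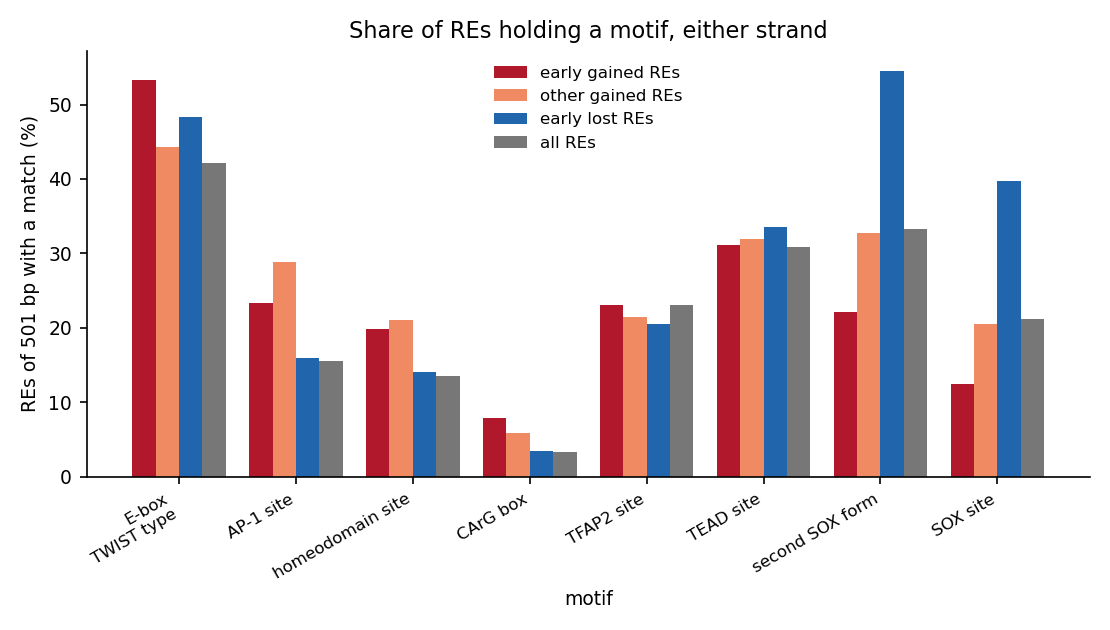
Share of 501 bp REs with at least 1 match of each motif on either strand in early gained, other gained, early lost and all REs. Early gained REs had the E-box in 53.3% and the SOX site in 12.5%, where all REs had 42.1% and 21.2%.

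Base composition differed between the sets, which bears on any motif share. Median GC content was 47.9% in members, 44.1% in other gained REs, 45.8% in early lost REs and 48.1% in all REs, and its part in the motif shares was not tested. The GC medians and the changes that follow are over REs of any width, not the 501 bp set, and wider REs can hold more matches. The median change from 0.5 to 16 nM was 0.39 ± 0.13 (SD, n = 7) in the 479 members with the E-box and 0.38 ± 0.12 in the 374 without, 0.37 ± 0.12 in the 215 with an AP-1 site and 0.39 ± 0.12 in the 638 without, and 0.40 ± 0.13 in the 138 with the SOX site and 0.38 ± 0.12 in the 715 without.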

How the data were processed

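ATAC-seq counts of 58 samples were used. Adapters were trimmed with skewer and read pairs were aligned to hg38 with Bowtie2 2.4.1. Duplicates, mitochondrial reads and poorly mapped reads were removed with SAMtools 1.10. Summits were called per sample with MACS2 2.2.7.1, merged, kept if found in several differentiations, extended by 250 bp each way and merged into one RE set, so that levels do not depend on peak calls in single samples. The authors deposited whole-number counts per RE and sample with no normalization, and replicates were not pooled.

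From these counts CPM used the column sums, and REs were annotated with GENCODE 44 (starts counted from 1). Tests were edgeR 4.0.16 quasi-likelihood F tests (TMM, no filter, differentiation batch as covariate) over all 151457 REs, with Benjamini-Hochberg adjusted p-values called under 0.05. SEs were derived from F. The functions were tested on simulated data. Alternatives were DESeq2 1.42.0, a low-count filter, total counts, other blocks, other labels and leaving out each replicate. R 4.3.3 and Python 3.11.15 were used.

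Groups followed the sample titles. For S9CC13_R14 the concentration labels of the 0 and 0.5 nM samples are exchanged against their titles. Columns of SOX9-tagged time-course differentiation R5 name S9CC47 where the titles name S9CC13, and the clone was not used there. Same-numbered samples deviated together from their group means (mean correlation 0.81 between 16 and 0.5 nM, lowest 0.74, and for 5 nM 0.74 and 0.21, over 84423 REs), so the numbers pair samples of one differentiation. Pairs of samples in a group (134) all differed by more than counting noise (reduced chi-square 2.60 or more). The labels name clones and differentiations as replicates.

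The members, the gene lists, the motifs and the tests were chosen with earlier results of these data known. The text names the 6 members with the largest change from 0.5 to 16 nM among those past the threshold and higher in 7 of 7 replicates, the 6 with the largest lower 3 h change, the 4 promoter members with the highest mean CPM at 500 nM, the member with the highest mean CPM at 500 nM for each gene list, 2 REs on each side of the 3 h threshold, and the members of the genes that hold the most. Some items that this rule names are not reported here. Precision is limited by the spread between replicates and by counts of 81 to 320 for the median member in single samples of the dose series.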

Additional observations from a re-analysis of the deposited data

Results flagged for a closer look

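The median 48 h change of the members at 500 nM was above 0 in all 7 SOX9-tagged replicates, from 0.442 to 0.575, and below 0 in both WT replicates, with a mean of -0.038. It is given here because the 48 h medians of one genotype all lay above 0 and those of the other below 0. The SOX9-tagged values selected the members, and the difference was not tested. Over all REs the WT medians were 0.01 and -0.02, and over other gained REs 0.003 and -0.038. At other times the members' WT medians were -0.007 in R4 and 0.128 in R5 (3 h), and 0.045 and 0.025 (24 h).

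The 7 replicates of the dose series were also searched for single values far from the rest, in 48 groups of values (the members' median changes and levels, and the dose response of each named member), and 0 were found where chance gives about 1 in 20 groups. These groups share their samples.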

How the results depend on the processing

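The number of members depended on the rule's settings. It was 526 with a pseudocount of 1, 1330 with no minimum level, 367 with a mean of at least 5 CPM, and 2413 or 2148 with the 3 h change in R4 alone or R5 alone. TMM scaling gave 787 and the concentration labels of S9CC13_R14 gave 827, and leaving out replicates gave 830 to 897. With no replicate block the members called higher fell to 66 at 16 nM, to 1 at 5 nM and to 29 in the comparison of the genotypes at 24 h. With the paired replicate block 689 rose at 16 nM, 292 at 5 nM and 3 at 1.6 nM. Leaving out single replicates gave 40 to 386 at 5 nM and 0 to 5 at 1.6 nM, and 373 (without S9CC47_R8) to 626 at 16 nM. The 1 higher and 7 lower WT calls at 48 h became 0 with DESeq2, with no replicate block, in the pooled fit and without either WT replicate. In the pooled fits that leave out a WT replicate, the lone sample is assumed to vary like the other groups. The median 48 h change in WT cells was -0.033 with a pseudocount of 1. Counts at 16 nM and at 24 h stayed within 1.5 times under DESeq2, total counts and each left-out replicate, and 0 members were called higher in WT cells at 3 h and 24 h under every alternative. The 38 named members gave 494 values at 16 against 0.5 nM under the alternatives, of which 58 lost and 20 gained significance, and E27 ran from -0.000932 (without S9CC13_R10) to 0.139 over the left-out replicates. The low-count filter gave the same calls, and the causes were not tested.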

Other observations

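Among the 7 members called lower in WT cells at 48 h, named after their values were seen, the change ran from -0.69 to -0.34 on the edgeR log2 scale. All 7 calls were lost with DESeq2, without the replicate block, in the fit pooled with SOX9-tagged samples, and without R8 or RSh. They lie nearest NECTIN1, KDM2B, TMEM132E, ATP2A3, NTMT2, DYSF and ID2. The one nearest ID2 (chr2:8535992-8536492) had mean levels of 2.99 CPM at 0 nM and 1.89 CPM at 500 nM in WT cells (-0.69 ± 0.16, SE, edgeR adjusted p = 0.017), while its mean change in SOX9-tagged cells was 0.35. The 19 members higher by 0.3 or more in both WT differentiations at 3 h included an intronic RE nearest PARD3, a cell polarity gene (chr10:34198813-34199722), with changes of 0.62 and 0.45 in WT cells, and an intronic RE nearest PPARD, a nuclear receptor gene (chr6:35363238-35363738), with 0.35 and 0.37.

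A longer pattern, CATCTG followed after 6 bases by ATTA, was counted after the data were seen. It was present in 1.67% of members, 1.75% of other gained REs, 1.01% of early lost REs and 0.932% of all REs of 501 bp.

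Across the 853 members, the mean 3 h change and the mean change from 0.5 to 16 nM had a Spearman's rho of 0.06, and the mean change from 0.5 to 16 nM and the mean difference between SOX9-tagged and WT cells at 24 h had 0.62. Both are across REs of shared libraries and are given as descriptions. The first is over values that the rule cut at 0.3.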
